A study of Mus musculus with 4 samples.

Results

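Genes that the glucocorticoid receptor is known to activate, and the gene of the receptor itself, were followed through the cell classes of inguinal white fat, a subcutaneous depot. The 10 members are Fkbp5, Tsc22d3, Zbtb16, Klf9, Errfi1, Sgk1, Ddit4, Pdk4, Glul and Nr3c1, taken by symbol from the 53715 genes listed in each count table, and all 10 were found. They were selected on their differences between labels in adipocytes and in all nuclei, so those values are given as a description with no test. The tests concern the other classes only. These classes are part of all nuclei and come from the same libraries, so the members' values there are not independent of the choice. Nuclei came from C57BL/6N mice aged 6 months and were profiled by single-nucleus RNA sequencing, 1 mouse per library by the sample titles. The study set 2 libraries labelled wild type (WT) against 2 labelled PTRF knockout. PTRF, now called cavin-1, coats caveolae and is encoded by Cavin1, and the labels do not say whether the knockout is whole-body or which part of the gene it removes. Both groups share strain and age, and no other allele, diet or agent is named.

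Cavin1 went against the labels. Over all nuclei, wild type 1 and 2 by label had 1.81 and 1.04 CPM (UMIs of a gene scaled to a common total per library), and knockout 1 and 2 by label had 53.9 and 50.5. The names of the deposited tables also carry the opposite genotype. The groups are therefore called by their labels throughout, and "lower" means lower in the libraries labelled knockout, which are the ones rich in Cavin1.

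The glucocorticoid receptor is a nuclear receptor that waits in the cytoplasm with heat-shock protein chaperones, binds corticosterone in mice, and then enters the nucleus and binds DNA. Its classical binding site is an inverted repeat of a short arm. In fat, glucocorticoids act on adipocytes and on their precursors, where they promote differentiation, and they restrain immune cells of the stroma. Nr3c1 encodes the receptor itself. Fkbp5 encodes FKBP51, a co-chaperone that lowers the receptor's affinity for hormone and closes a feedback loop. The other members have diverse roles: Tsc22d3 (GILZ) restrains inflammatory signalling, Zbtb16 (PLZF) and Klf9 are transcription factors, Errfi1 (MIG6) inhibits the epidermal growth factor receptor, Sgk1 is a kinase that acts on ion transport, Ddit4 (REDD1) inhibits mTORC1, Pdk4 blocks pyruvate dehydrogenase, and Glul makes glutamine.

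Promoter sequence is shown for 3 members to set the gene with the widest difference beside genes whose windows hold a receptor motif. Windows of 250 bases before an annotated start (RefSeq, GRCm38.p6) were on hand for 8 of the 10 members, 16 windows in all. The full site searched was GNACANNNTGTNC, which reads the same on both strands, and the single arm searched was AGAACA or, on the other strand, TGTTCT. A full site can overlap a single arm. Capitals mark the match, and all are written 5′ to 3′ on the gene's strand.
Sgk1, chr10:21993640-21993889, plus strand, full site starting 188 bases before the start: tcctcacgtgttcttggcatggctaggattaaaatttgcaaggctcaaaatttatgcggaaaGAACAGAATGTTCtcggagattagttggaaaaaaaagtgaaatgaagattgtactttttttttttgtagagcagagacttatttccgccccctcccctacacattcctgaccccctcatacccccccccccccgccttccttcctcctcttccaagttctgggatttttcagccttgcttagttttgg
Tsc22d3, chrX:140600672-140600737, minus strand, single arm starting 185 bases before the start: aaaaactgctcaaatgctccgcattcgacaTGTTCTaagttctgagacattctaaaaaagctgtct
Fkbp5, chr17:28486150-28486399, minus strand, no match: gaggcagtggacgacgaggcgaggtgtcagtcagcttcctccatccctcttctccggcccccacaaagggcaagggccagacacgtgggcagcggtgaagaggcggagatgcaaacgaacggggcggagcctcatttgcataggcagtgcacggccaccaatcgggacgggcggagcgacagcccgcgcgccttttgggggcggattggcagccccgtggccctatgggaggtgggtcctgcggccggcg

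The full site occurred in 1 of the 16 windows, at 1 of the 6 Sgk1 starts, against 0.387% of the 32851 windows of all genes. The single arm occurred in 4 windows of 2 members, Sgk1 and Tsc22d3, against 16.1% of all windows. No match says only that these letters are not in that window. Fkbp5, which was lower in all 9 classes described below, had no match in its window, and Sgk1, with the full site, was lower without overlap in 1 class.

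After filtering, 15528, 6664, 11988 and 15887 nuclei remained in wild type 1, wild type 2, knockout 1 and knockout 2 by label, from tables totalling 8855578 to 35134208 UMIs. Median UMIs per nucleus were 1022, 933.5, 844.5 and 1401 in that order. Of 22 clusters, 16 were named for 9 classes by marker genes: adipocyte, progenitor, vascular endothelial, macrophage, dendritic, B cell, T or NK, luminal epithelial and myoepithelial. A class name means nuclei that resemble the type by markers. The epithelial classes come from the mammary gland that lies within this fat pad, and adipocyte nuclei numbered 9774 in all. The members and the pathway lists below were left out of the genes used for clustering. Across the 6 pairs of libraries 540 barcodes occurred in both libraries of a pair, of 50812 distinct barcodes. Because all classes come from the same 4 mice, the same order of libraries in several classes is not independent evidence.

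Fkbp5 (chromosome 17, 28399094 to 28517527, minus strand, GRCm38) was lower in the libraries labelled knockout in each of the 9 classes. In adipocytes the wild type libraries had 1415 and 933 CPM and the knockout libraries 82.0 and 325 CPM. The means were 1174 ± 341 and 204 ± 172 CPM (SD, n = 2), a 5.77-fold difference. All 3 adipocyte clusters showed the same separation, with 1002 to 1478 CPM against 73.5 to 273 in the first and 768 to 1206 against 103.5 to 297 in the shallowest.

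Progenitor nuclei gave 1012 and 876 CPM of Fkbp5 against 250.2 and 585 in the libraries labelled knockout. The vascular endothelial class gave 1234 and 825 against 288 and 499. Macrophages gave 1472 and 1038 against 370 and 921, the closest approach of the groups among these 3 classes. In each, both libraries labelled knockout lay below both labelled wild type.

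Lymphocytes and dendritic nuclei held less Fkbp5. B cells gave 523 and 347 CPM against 201.5 and 212. The T or NK class gave 673 and 482 against 228 and 281. Dendritic nuclei gave 344 and 194.5 against 122 and 179.9, and there the second wild type library and the second knockout library were nearly level.

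The mammary epithelial classes showed the same order. Myoepithelial nuclei gave 385 and 211 CPM of Fkbp5 against 51.5 and 78.1, a 4.60-fold difference of means. Luminal nuclei gave 829 and 326 against 182 and 241. The mix of luminal clusters differed between libraries, and its part in the luminal values was not tested: the cluster led by milk-protein genes held 2061, 14, 906 and 333 luminal nuclei, in the order wild type 1, wild type 2, knockout 1, knockout 2. The other 2 luminal clusters gave 238 and 247 against 52.8 and 108, and 742 and 413 against 194 and 278, with no overlap in either.

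**Figure D1:**
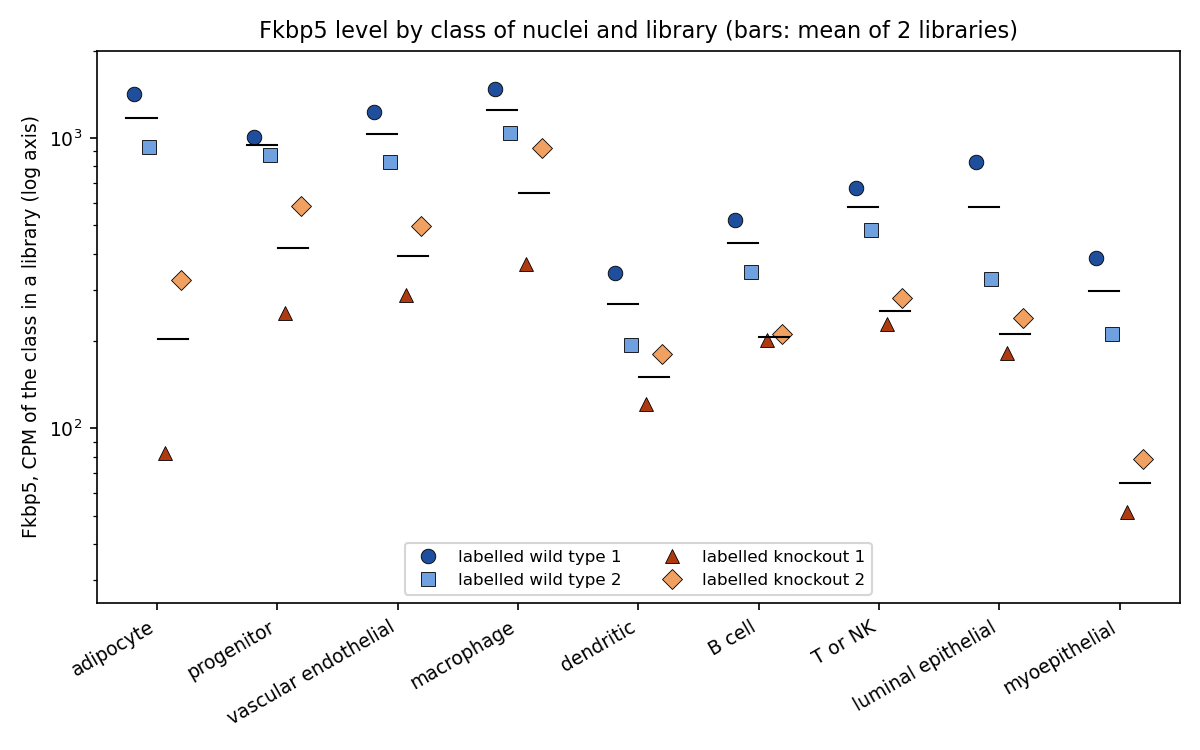
Fkbp5 level in CPM (log axis) in each class of nuclei, 1 point per library and bars at the mean of 2 libraries. In all 9 classes both libraries labelled knockout lie below both labelled wild type; wild type 1 is the highest point and knockout 1 the lowest in each.

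The library labelled wild type 1 was the highest and knockout 1 the lowest for Fkbp5 in 9 of 9 classes, so libraries also differed within each label. Of the clusters taken singly, 21 had enough nuclei in each library to be summed, and the groups did not overlap in 21 of 21. How many of all genes do the same was not counted. The 21 clusters include the unnamed ones of low UMI count, where Fkbp5 ran, for example, 517 and 321 CPM against 186 and 274 in cluster 1.

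None of these differences outside adipocytes passed Benjamini-Hochberg (BH) adjustment over all genes of its class in the edgeR quasi-likelihood test, with n = 2 libraries per label. The largest was in myoepithelial nuclei, a log2 difference of -2.22 (SE 0.35, unadjusted p = 5.97e-05, adjusted p = 0.103), and DESeq2 called it (adjusted p = 0.00167). Vascular endothelial nuclei gave -1.36 (SE 0.38, adjusted p = 0.14) and progenitors -1.23 (SE 0.39, adjusted p = 0.787). The luminal difference was -1.55 (SE 0.40, adjusted p = 1) and fell to -1.25 (SE 0.28) without the milk-protein cluster. T or NK nuclei gave -1.15 (SE 0.64), B cells -1.05 (SE 0.53), macrophages -0.98 (SE 0.46) and dendritic nuclei -0.86 (SE 0.32), with adjusted p from 0.524 to 1. Leaving out 1 library leaves a lone library under 1 label, so only the difference is given and no call is read from it. The Fkbp5 difference then ran from -1.99 to -0.73 in progenitors and from -1.82 to -1.115 in vascular nuclei. It ran from -2.03 to -0.82 in luminal and from -2.56 to -1.71 in myoepithelial nuclei. Whether the difference in adipocytes (-2.47, SE 0.52) exceeds that in other classes was not tested.

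The order of mean Fkbp5 levels among classes differed between the labels, though most steps lay within the spread. In the libraries labelled wild type the mean was highest in macrophages (1255 ± 307 CPM), then adipocytes (1174 ± 341), vascular endothelial nuclei (1030 ± 289) and progenitors (944 ± 96.3), whose neighbours in this order do not differ beyond their spread. A step wider than the spread separated progenitors from T or NK nuclei (578 ± 135). The lowest were myoepithelial (298 ± 123) and dendritic nuclei (269 ± 105). In the libraries labelled knockout macrophages again led (645 ± 390) and myoepithelial nuclei were lowest (64.8 ± 18.9). Adipocytes ranked 7 by mean (204 ± 172), beside luminal nuclei (211 ± 41.8) and B cells (207 ± 7.42). These neighbours did not differ beyond their spread, and the 2 adipocyte values, 82.0 and 325 CPM, lay far apart. Adipocyte values were used to choose the members, so their place in the order is a description. Macrophages were the top class in each of the 4 libraries.

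Free RNA released from broken nuclei can carry a gene into the droplets or wells of other cells, so Fkbp5 was set beside the level this would bring. The 12 adipocyte markers stood, in other classes, at 2.12% to 10.7% of their adipocyte level. Scaled by that share, adipocyte Fkbp5 would account for 1.18% to 25.6% of the Fkbp5 measured in another class and library. If the free RNA is instead given the make-up of all nuclei of the library, it would account for 5.26% to 10.3% in macrophages, 7.39% to 20.7% in progenitors, 18.7% to 32.5% in B cells, 29.8% to 40.3% in dendritic nuclei and 24.8% to 75.4% in myoepithelial nuclei. After subtraction of the latter, with the rest rescaled to the UMIs that remain, the groups still did not overlap in 8 of 8 classes. Myoepithelial Fkbp5 was then 286 and 176 CPM against 34.0 and 23.1, and macrophage Fkbp5 1570 and 1091 against 413 and 1017. Summed adipocyte markers were higher in the libraries labelled knockout without overlap in dendritic nuclei (427 and 214 CPM against 831 and 897), B cells (595 and 402 against 637 and 1053) and T or NK nuclei (586 and 468 against 1057 and 1062). They overlapped in the other 5 classes, for example 734 and 238 against 452 and 1168 in progenitors and 567 and 185 against 325 and 912 in luminal nuclei.

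**Figure D2:**
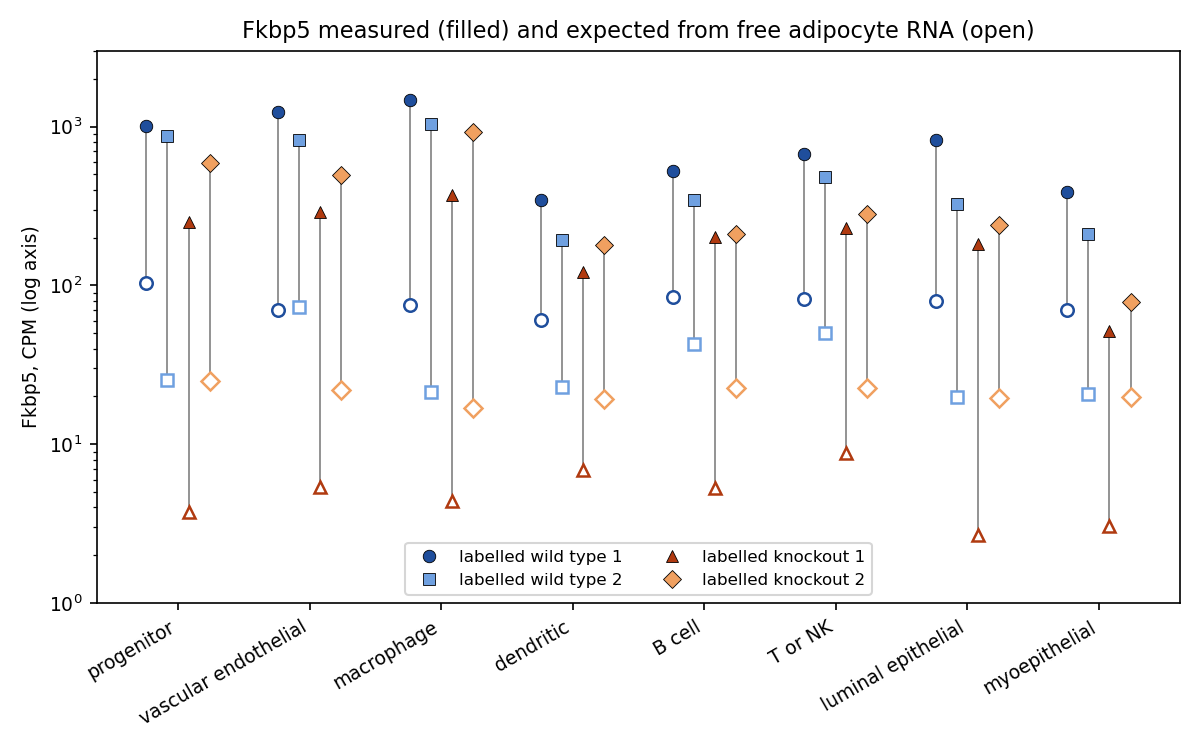
Fkbp5 in CPM (log axis) measured in each class other than adipocytes (filled) and the level that free adipocyte RNA would bring, from the 12 adipocyte markers (open), 1 pair of points per library. Filled points lie above open points in all classes and libraries, by the least in myoepithelial nuclei, where the open value reaches 25.6% of the filled one.

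Tsc22d3 (chromosome X, 140539528 to 140600659, minus strand), the GILZ gene, did not share this pattern in all classes. Adipocytes were the top class in each library, at 264 and 479 CPM under the wild type label and 137 and 439 under the knockout label, so the groups overlapped there. Vascular endothelial nuclei gave 254 and 237 CPM against 78.5 and 132, without overlap (log2 -1.14, SE 0.41, adjusted p = 0.303). Macrophages gave 260 and 105 against 78.5 and 242, with 1 high library under each label. The groups did not overlap, with knockout lower, in 4 of 9 classes, of which T or NK nuclei overlapped after TMM scaling while luminal nuclei then separated. It was lowest in knockout 1 in 8 of 9 classes. The values in myoepithelial nuclei, 41.3 and 33.5 against 23.4 and 28.5, reach down to the level expected from free RNA with the make-up of all nuclei (39.6% to 128% of the measured value).

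Zbtb16 (chromosome 9, 48654297 to 48836222, minus strand), which encodes the zinc-finger factor PLZF, was highest in adipocytes and progenitors. Adipocytes gave 1653 and 2744 CPM against 802.5 and 1619, a separation that was lost after TMM scaling. Progenitors gave 2018 and 2764 against 660.0 and 1492 (log2 -1.22, SE 0.43, adjusted p = 0.969). The wild type libraries were thus both above the knockout ones, but wild type 2 led, unlike for Fkbp5. With 1 library left out the progenitor difference ran from -1.94 (without knockout 2) to -0.72.

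Macrophages held less Zbtb16, 414 and 398 CPM against 185 and 267, and there the 2 wild type libraries were close together (log2 -0.86, SE 0.34). Myoepithelial nuclei gave 548 and 688 against 175 and 361 (log2 -1.23, SE 0.34, adjusted p = 1). Luminal nuclei gave 406 and 751 against 136.5 and 374 (log2 -1.35, SE 0.58). With 1 library left out the myoepithelial difference ran from -1.83 to -0.81 and the luminal difference from -2.19 to -0.73. The vascular class overlapped (log2 -0.71, SE 0.42). In the immune classes other than macrophages Zbtb16 lay near its background: free RNA with the make-up of all nuclei would give 63.3% to 141% of the level measured in B cells, T or NK and dendritic nuclei. The differences as measured there were -0.15 in B cells, -0.24 in T or NK nuclei and 0.21 in dendritic nuclei. After subtraction dendritic Zbtb16 was 22.5 and 23.2 CPM against 72.5 and 42.4, higher without overlap in the libraries labelled knockout. B cells then had less than nothing left in both wild type libraries (-54.6 and -53.8) and 13.4 and 2.72 in the others, and T or NK nuclei overlapped.

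Klf9 (chromosome 19, 23141226 to 23168134, plus strand), a Krüppel-like factor, was highest in progenitors in each library and overlapped between the labels there, at 276 and 192 CPM against 259 and 296. Adipocytes gave 109.7 and 131 against 48.5 and 90.7 without overlap. Macrophage Klf9 was 69.0 and 64.3 CPM against 9.24 and 35.3 (log2 -1.36, SE 0.57, adjusted p = 1), resting on 2 UMIs in knockout 1 and 16 in wild type 2. Over the 9 classes Klf9 separated the labels in 5, all lower, including T or NK nuclei, where TMM scaling made them overlap.

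Errfi1 (chromosome 4, 150853919 to 150868892, plus strand), whose product MIG6 binds and inhibits the epidermal growth factor receptor, had its clearest difference in progenitors. There the wild type libraries had 819 and 706 CPM and the knockout libraries 178 and 303. The means were 763 ± 80.2 and 240.5 ± 88.2, a 3.17-fold difference that exceeded the spread within labels (log2 -1.72, SE 0.33, unadjusted p = 0.000351). It missed the threshold in edgeR (adjusted p = 0.188) and passed in DESeq2 (adjusted p = 0.00148). With 1 library left out the difference ran from -2.18 (without knockout 2) to -1.37. Both progenitor clusters showed it, with 958 to 1192 CPM against 188.5 to 441 in the smaller and 491.5 to 557 against 176.5 to 251 in the larger. Free RNA with the make-up of all nuclei would give at most 6.59% of progenitor Errfi1.

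In vascular endothelial nuclei Errfi1 was 177 and 79.0 CPM against 13.1 and 53.4 (log2 -1.71, SE 0.62, adjusted p = 0.307), on 42, 9, 1 and 17 UMIs. Free RNA with the make-up of all nuclei would give 20.7% to 102% of these levels. Adipocytes held little, 72.1 and 72.3 CPM against 18.7 and 42.7. Myoepithelial nuclei overlapped, since wild type 1 stood at 725 CPM and wild type 2 at 160, against 285 and 203. The log2 difference of -0.93 (SE 0.62) became 0.53 without wild type 1 and -1.63 without wild type 2. Luminal nuclei gave 356 and 118 against 93.3 and 123 (log2 -1.22, SE 0.48) and overlapped in CPM but not after TMM scaling. The difference was -0.65 without the milk-protein cluster, -1.77 without wild type 2 and -0.31 without wild type 1. Errfi1 in macrophages (log2 -0.93, SE 0.70), B cells (-0.92, SE 0.55), T or NK nuclei (-0.48, SE 0.52) and dendritic nuclei stood beside a large background: free RNA with the make-up of all nuclei would give 30.6% to 272% of what was measured.

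Sgk1 (chromosome 10, 21882184 to 21999903, plus strand), a kinase gene, overlapped between the labels in 6 of 9 classes. Vascular endothelial nuclei gave 241 and 105 CPM against 170 and 160, and T or NK nuclei 129 and 103 against 133 and 81.0. Macrophages were higher in the libraries labelled knockout, at 157 and 110.1 CPM against 105.5 and 76.4 in those labelled wild type. The groups separated in 3 of 9 classes, lower in adipocytes (37.5 and 41.8 against 32.1 and 26.0) and higher in macrophages and dendritic nuclei. Its mean over all nuclei was 85.9 ± 15.1 CPM against 80.2 ± 18.9.

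Ddit4 (chromosome 10, 59949669 to 59951834, minus strand), the mTORC1 inhibitor REDD1, was a low-count gene that was lower in adipocytes, progenitors, vascular endothelial nuclei and macrophages without overlap. The vascular class was its top class in each library, at 122.5 and 272 CPM against 26.2 and 59.6 (log2 -1.95, SE 0.56, adjusted p = 0.148), on 29, 31, 2 and 19 UMIs. With 1 library left out this difference ran from -2.78 to -1.36. Progenitors gave 42.6 and 39.5 against 5.65 and 15.3 (log2 -1.84, SE 0.47, adjusted p = 0.52). Macrophages gave 71.7 and 36.2 against 9.24 and 24.3 (log2 -1.54, SE 0.61).

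Adipocyte Ddit4 was 20.1 and 8.23 CPM against 2.01 and 3.61, a 5.04-fold difference of means. Lymphocytes showed no such step: T or NK nuclei gave 32.0 and 19.4 against 20.4 and 26.4 (log2 -0.12, SE 0.54), and B cells gave -0.48 (SE 0.73). Luminal nuclei gave -1.34 (SE 0.73) with overlap, and from -2.14 to -0.22 with 1 library left out.

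**Figure D3:**
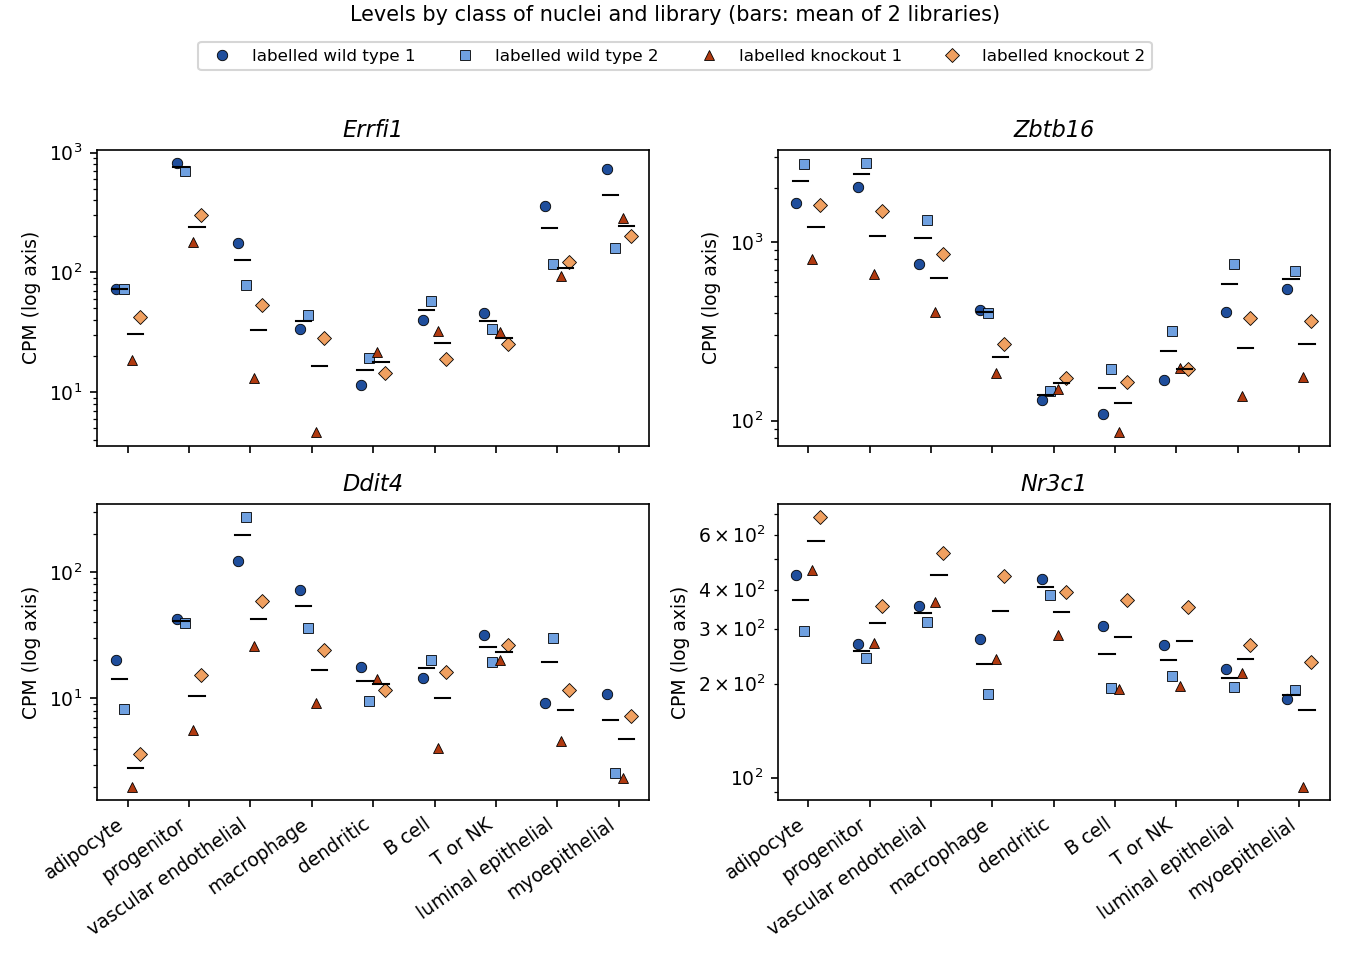
Levels in CPM (log axes) of Errfi1, Zbtb16, Ddit4 and Nr3c1 in each class of nuclei, 1 point per library and bars at the mean of 2 libraries. Errfi1 and Zbtb16 separate the labels in progenitors, Ddit4 peaks in vascular endothelial nuclei, and Nr3c1, the receptor gene, is highest in the library labelled knockout 2 in 8 of 9 classes.

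The 2 metabolic members had different patterns. In adipocytes Pdk4 (chromosome 6, 5483351 to 5496309, minus strand) stood at 111 and 132 CPM against 39.5 and 35.5, with 121.5 ± 15.3 against 37.5 ± 2.84 CPM as means. Luminal nuclei had more of it in 3 of the 4 libraries, at 325 and 34.6 CPM against 296 and 221. Wild type 2 was the low one, and it was also the library almost without the milk-protein cluster. It was lowest in the remaining luminal clusters as well. Cluster 6 gave 210 and 15.8 CPM against 261 and 260, and cluster 4 gave 103 and 52.6 against 119 and 84.5. The part of the cluster mix in luminal Pdk4 was not tested. The luminal log2 difference of Pdk4 was 0.45 with all libraries and ran from -0.38 to 2.71 with 1 library left out. The other classes overlapped, and adipocytes were the only one of the 9 in which Pdk4 separated the labels. Glul (chromosome 1, 153899944 to 153909723, plus strand) overlapped in adipocytes, 450.0 and 258 CPM against 134.5 and 320. Progenitor Glul was 188.5 and 67.5 against 49.5 and 78.1 (log2 -1.05, SE 0.42, adjusted p = 1), where wild type 1 alone was high. With 1 library left out this difference ran from -1.56 to -0.13. Luminal Glul was 136 and 515 against 295 and 266. Its log2 difference changed sign with 1 library left out: it was -1.07 without wild type 1 and positive without wild type 2. Cluster 4 gave 249 and 912 CPM of Glul against 1063 and 729, and cluster 6 gave 141 and 93.4 against 62.7 and 111. The part of the cluster mix in luminal Glul was not tested either.

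Nr3c1, the receptor gene itself, was lower without overlap in CPM in none of the 9 classes. Adipocytes gave 444 and 296 CPM against 463 and 682 in the libraries labelled knockout, progenitors 267 and 242 against 269.9 and 355, and vascular endothelial nuclei 355 and 316 against 366 and 524. In these 3 classes knockout was higher without overlap, though the separation in adipocytes and progenitors was lost after TMM scaling. Macrophages gave 279 and 185 against 240.3 and 443. Dendritic nuclei ran the other way, 432 and 386 against 287 and 392, with overlap in CPM that TMM scaling turned into a separation. Nr3c1 was highest in knockout 2 in 8 of 9 classes, which is also the library with the most UMIs per nucleus; the part of depth in this was not tested.

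**Figure D4:**
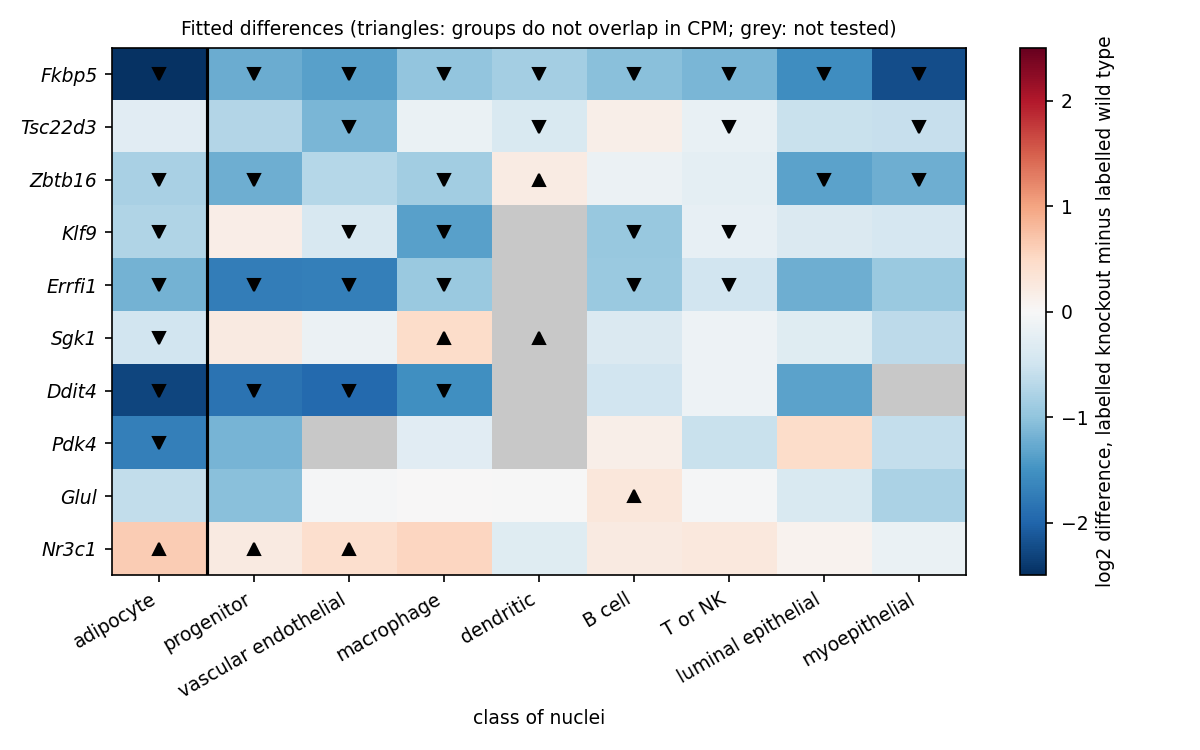
Fitted log2 differences, labelled knockout minus labelled wild type, for the 10 members (rows) in 9 classes (columns; blue lower, red higher, grey not tested). Triangles mark members whose groups do not overlap in CPM, and the line sets off adipocytes, which are a description; the Fkbp5 row is blue with a triangle in all 9 classes, and the Nr3c1 row is mostly red.

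Taken as a set, members had negative median differences in all 9 classes, and none passed the edgeR threshold outside adipocytes. The choice also used all nuclei, which include the tested classes. The members' shares and medians in those classes, set below against all genes, are therefore partly fixed by the choice. In adipocytes, where the members were chosen, 9 of 10 had differences below 0 (47.9% of all 18873 genes did) and 7 were lower without overlap (11.1% of genes), with a median log2 difference of -0.78 against 0.02 for all genes; these values describe the choice and nothing is read from them.

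Progenitors had the lowest median of the tested classes. None of the 10 members was called by edgeR (0.0244% of 12288 genes were), DESeq2 called 1, Errfi1, and 5 had an unadjusted p under 0.05 and were lower, Fkbp5, Zbtb16, Errfi1, Ddit4 and Glul (2.31% of genes). No member had such a p in the other direction in any tested class. The groups did not overlap, knockout lower, for 4 of 10 (12.3% of genes), and the members' median was -1.10 against -0.01 for all genes. Markers of mural cells also differed in this class, their sum being 241 and 236 CPM against 497 and 392, and their part in the result was not tested.

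In the vascular endothelial class 9 members could be tested and edgeR called 0 (1.13% of 3879 genes). DESeq2 called 0 as well, and gave no adjusted p for Errfi1, Ddit4, Klf9 and Glul. Lower with an unadjusted p under 0.05 were 4, Fkbp5, Tsc22d3, Errfi1 and Ddit4 (5.88% of genes), and 5 were lower without overlap (19.2%), with a median of -0.71 against 0.01. This class holds lymphatic nuclei too, it numbered only 193, 83, 78 and 164 nuclei, and no cluster carried its name at clustering resolution 0.5. All 5 tested lymphatic markers were below 0 and 2 were called lower, the 7 summing to 5320 and 2590 CPM against 641 and 1168; their part in the members' differences was not tested.

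Among macrophages edgeR and DESeq2 called 0 of 10 members (edgeR called 0.0360% of 8340 genes). Zbtb16, Klf9 and Ddit4 had an unadjusted p under 0.05 and were lower, 3 of 10 against 0.827% of genes, and 5 were lower without overlap (11.1% of genes). The median was -0.57 against -0.01. Plasma cell markers summed to 58.2 and 109 CPM against 933 and 1035 in this class, and their part was not tested.

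In the lymphoid and dendritic classes at most 1 member, Fkbp5, had an unadjusted p under 0.05. In B cells edgeR and DESeq2 called 0 members (edgeR called 0.0382% of 13106 genes), 1 had an unadjusted p under 0.05, Fkbp5 (0.755% of genes), and 3 were lower without overlap (11.5%), with a median of -0.25. Plasma cell markers summed to 161 and 211 CPM against 294 and 3181 in B cells, 2 of 5 tested being called higher, and their part was not tested. In T or NK nuclei both tools called 0 (edgeR 0.0175% of 17110 genes), none had an unadjusted p under 0.05 (0.316% of genes) and 4 were lower without overlap (9.35%), with a median of -0.20 against 0.00. Dendritic nuclei allowed a test of 5 members. Both tools called 0 (edgeR 0.0591% of 5076 genes), Fkbp5 alone had an unadjusted p under 0.05 (2.66% of genes) and 2 members were lower without overlap (15.1%).

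In luminal nuclei both tools called 0 of 10 members (edgeR 0.00610% of 16394 genes), 2 had an unadjusted p under 0.05 and were lower, Fkbp5 and Errfi1 (0.958% of genes), and 2 were lower without overlap (8.29%), with a median of -0.47. In myoepithelial nuclei edgeR called 0 of 9 (0.00961% of 10401 genes) and DESeq2 called Fkbp5. Fkbp5 and Zbtb16 had an unadjusted p under 0.05 (0.798% of genes), 3 members were lower without overlap (10.8%) and the median was -0.65 against -0.01. Progenitor markers in this class summed to 2275 and 598 CPM against 952 and 1441.

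Over all classes, the number in which the libraries labelled knockout were lower without overlap was 9 for Fkbp5, 6 for Errfi1, 5 for Zbtb16 and Klf9, 4 for Tsc22d3 and Ddit4, 1 for Sgk1 and Pdk4 and 0 for Glul and Nr3c1. Higher without overlap were Nr3c1 in 3 classes, Sgk1 in 2 and Zbtb16 and Glul in 1 each. For Nr3c1 the separation in adipocytes and progenitors was lost after TMM scaling. The share of all genes higher without overlap was not counted. After subtraction of free RNA with the make-up of all nuclei, in the 8 classes other than adipocytes, the number lower without overlap was 8 for Fkbp5, 5 for Tsc22d3 and Klf9, 4 for Zbtb16, 3 for Ddit4, 2 for Errfi1 and Pdk4, 1 for Glul and Nr3c1 and 0 for Sgk1. Errfi1 then remained lower in progenitors and vascular nuclei, overlapped in macrophages and B cells and was higher in T or NK nuclei. Fkbp5 was the only one of the 10 members that separated the labels in each of the 9 classes. Over the 21 clusters the count lower without overlap was 21 for Fkbp5, 13 for Errfi1 and 12 for Zbtb16, and at most 8 for the others. In a single class, 8.29% (luminal) to 19.2% (vascular) of all genes tested were lower without overlap. Classes and clusters share the same 4 libraries. The share of all genes that separate in as many classes or clusters was not counted, so these counts are a description.

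Further glucocorticoid targets were read from a list of 30 genes. In progenitors 24 were tested, and 0 were called by edgeR, 7 had an unadjusted p under 0.05 and were lower (2.31% of all genes), none was higher at that level (1.69% of genes), and the median was -0.60. At that level 2 were lower and 0 higher in the vascular class (5.88% and 4.15% of genes) and in macrophages (0.827% and 0.863%), and 1 was lower and 0 higher in B cells (0.755% and 0.618%) and luminal nuclei (0.958% and 1.15%). T or NK nuclei went the other way, with 0 lower and 2 higher (0.316% and 0.479% of genes), and 0 passed in either direction in dendritic (2.66% and 3.8%) and myoepithelial nuclei (0.798% and 0.75%). Dusp1, a phosphatase gene that shuts down MAP kinases, is named here after its values were seen. It stood at 95.7 and 94.2 CPM against 31.1 and 37.0 in progenitors and at 106 and 72.4 against 32.3 and 28.6 in macrophages. Its levels in the other classes are not given here. Without overlap, 12 genes of the list were lower and 3 higher in progenitors, and 6 lower and 3 higher in macrophages. Of all genes, 12.3% and 11.1% were lower without overlap in these 2 classes. In adipocytes 21 of 28 were below 0 (47.9% of all genes were) with a median of -0.43, in luminal nuclei 18 of 26 (50.5%) with -0.42, in the vascular class 9 of 13 (49.1%) with -0.23 and in macrophages 13 of 18 (51.6%) with -0.21. In B cells, T or NK, dendritic and myoepithelial nuclei the medians lay between -0.12 and 0.07. No gene of this list was called by edgeR in any of the 8 tested classes.

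Genes that supply hormone or serve the receptor were read from another list. Of 19 listed, 18 were in the tables, and 12 to 17 were tested per class. Their medians ran from -0.15 in the vascular class to 0.25 in macrophages, with 0 called by edgeR in each class. Hsp90ab1, which encodes the HSP90 beta chaperone and is named after its values were seen, was higher without overlap in 7 of the 9 classes. An example is dendritic nuclei, with 66.2 and 112 CPM against 222 and 284. Hsp90ab1 overlapped in adipocytes and the vascular class. The share of all genes that do the same was not counted, so this count is a description. Clock genes, which glucocorticoids can reset, had medians from -0.43 (4 tested, vascular) to 0.19 with 0 called.

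Immediate early genes, which respond within minutes to stress and tissue handling, had differences mostly below 0 in some classes, as the members did. In progenitors all 9 tested were below 0 (51.5% of all genes were), with a median of -0.92, and their sum was 388 and 293 CPM against 245 and 201. In adipocytes 13 of 13 were below 0 (47.9% of genes) with a median of -0.70, the sum being 234 and 220 CPM against 159 and 84.6. Myoepithelial nuclei had 9 of 10 below 0 (51.3% of genes, median -0.57), macrophages 7 of 8 (51.6%, -0.54), luminal nuclei 10 of 14 (50.5%, -0.21) and the vascular class 1 of 2. In B cells (0.30), T or NK (0.01) and dendritic nuclei (0.51) the medians were not below 0. The part of immediate early genes in the members' differences was not tested.

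The genes whose levels were most like those of Fkbp5 over the 36 sums (9 classes in 4 libraries, which share libraries and depth), among 8418 genes with a mean of at least 20 CPM, were Ssh2 (Pearson r = 0.709 on log2 CPM), Il6ra (0.704), Gda (0.677), Ddit4 (0.674) and Mertk (0.643). Taken as deviations from each class's mean over the 4 libraries, the most like were Errfi1 (0.736), Jmjd1c (0.732), Exoc2 (0.713), Ranbp9 (0.709) and Il6ra (0.698). Ddit4 ranked 7, Tsc22d3 ranked 8 and Zbtb16 ranked 19 by that measure, whereas Sgk1 (-0.047) and Nr3c1 (0.017) were near 0. These correlations are descriptions across classes and libraries.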

How the data were processed

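Nuclei of 4 libraries were isolated and captured with a Singleron GEXSCOPE kit and sequenced on an Illumina NovaSeq, per the labels' protocols. The deposited values are UMI counts, not normalized, and no barcode in them totals under 500 UMIs. The submitters' processing notes name GRCm38 (mm10) and Seurat 4.3.0, and for the aligner a name was not given in the sources used here.

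Nuclei with at least 500 UMIs, 300 genes and at most 10% mitochondrial counts were kept. Scrublet called 2, 0, 0 and 0 doublets, too few to have worked, so doublets remain. Leiden clustering (scanpy 1.11.5, 2000 variable genes without members and lists, 30 components, 15 neighbours, resolution 1) gave 22 clusters. A cluster was named when at least 3 markers of a type were among its 100 leading genes. A skeletal muscle name was withdrawn because few of its nuclei kept it in other clusterings; the vascular endothelial name was kept although no cluster carried it at resolution 0.5.

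Counts were summed per class and library and tested with edgeR 4.0.16 (filterByExpr, TMM, robust quasi-likelihood F test, two-sided, BH at 0.05 over all genes of a class). Levels are plain CPM of these sums. The SE is the absolute log2 difference over the square root of F. DESeq2 1.42.0 was the other tool. The test was run on simulated progenitor sums with 200 changes of 8-fold among 12288 genes, drawn with a common dispersion. It recovered 88.5% of them, and 3.8% of its calls were false. Smaller changes, such as most of those reported here, were not simulated. All 10 members are named in every class; list genes were to be named where called.

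The members and lists were chosen with earlier results of these data known. Mice are the replicates, 2 per label, and nothing in the labels says whether equal numbers were handled together. Coordinates come from GENCODE M21 (GRCm38) and promoters from RefSeq. A luminal or a T or NK cluster was left out, and free RNA was given the make-up of all nuclei, as alternatives chosen after seeing the data.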

Additional observations from a re-analysis of the deposited data

How the results depend on the processing

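Fkbp5 kept its direction in all 104 alternatives outside adipocytes, with log2 differences from -2.56 to -0.45. In most of them it stayed under the threshold. All alternatives reuse the same libraries, whose groups did not overlap for Fkbp5 in any class. Leaving out 1 library could therefore hardly change the direction, and the count is not independent support. The number of members called lower by edgeR, 0 in each tested class, became 1 in progenitors and 1 in myoepithelial nuclei with DESeq2, 1 in progenitors, 2 in luminal and 1 in myoepithelial nuclei with no filter on low counts, and 1 in the vascular class when members were kept in the clustering. With the replicate number as a block, 1 member was called lower in myoepithelial nuclei (Fkbp5, adjusted p = 0.0136) and none in the other classes; the libraries share only a number, with 2 pairs, and no pairing is established. Leaving out 1 library at a time, which assumes that the lone library varies like the others, gave 0 to 3 called lower in progenitors, 0 to 1 in the vascular class, 0 to 4 in luminal and 0 to 2 in myoepithelial nuclei, and 0 to 1 called higher in luminal nuclei. In progenitors the 3 appeared without knockout 2 (Fkbp5, Zbtb16 and Errfi1), and in luminal nuclei the 4 appeared without wild type 1. The cause was not tested.

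Near-zero differences changed sign. Zbtb16 became -0.022 in dendritic nuclei and 0.092 in B cells with no filter, and 0.53 in B cells after subtraction of free adipocyte RNA; Ddit4 became 0.13 in T or NK nuclei with at least 1000 UMIs and 500 genes. Leaving out 1 library at a time gave, for Zbtb16, -0.82 to 0.34 in B cells and -0.49 to 0.14 in T or NK nuclei. For Ddit4 it gave -2.07 to 0.11 in B cells and -0.49 to 0.52 in T or NK nuclei. For Errfi1 in myoepithelial nuclei it gave -1.63 (without wild type 2) to 0.53 (without wild type 1). The vascular class was not obtained at resolution 0.5. From Adipoq alone, free adipocyte RNA would bring a mean of 39.9% of dendritic Fkbp5 and 12.4% to 18.2% in the vascular, B cell and T or NK classes.

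The number of genes called over the whole table moved by more than 1.5 times: from 3 to 26 in progenitors and 1 to 15 in luminal nuclei with DESeq2, to 41 and 53 with no filter, and from 69 to 16 in adipocytes and 44 to 2 in the vascular class with the replicate block. Depth limits the low members: Ddit4 and Errfi1 rest on 1 to 42 UMIs per library in vascular nuclei, and with 2 libraries per label no member outside adipocytes is shown to be unchanged.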
